A study of Mus musculus with 11 samples.

Results

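Mouse cells sorted for Prominin-1 at day 3.5 of a differentiation in culture were compared with unsorted cells of the same differentiation at day 2. The members were chosen by their labels: 3 libraries labelled as Prominin-1 sorted progenitors and 2 libraries labelled day 2, which are 5 of the 11 libraries of the series. They were read over all 38197 genes of the deposited count table, of which 17006 held enough counts to be tested. Both groups were wild type cells of strain 129, differentiated from embryonic stem cells and kept as a monolayer. The day 0 libraries of the series name the line E14. Both groups were given retinoic acid (RA) and SAG from the start of differentiation. This treatment runs to day 3, and the day 2 cells were taken before it ended. SAG activates Smoothened, the receptor component that starts the response to hedgehog proteins, and the stated aim of the culture is ventral hindbrain neurons. The 2 unsorted libraries of day 3, made of the same cells under the same treatment, are given beside the comparison. The labels give the sorted cells as day 3.5 in their status field and as 3 days in their source field. All come from mouse cells of this 1 strain, and no label says that libraries of a group came from separate cultures, so the p-values measure the spread between these libraries, which may be technical. The sorted libraries also carry another project code than all unsorted ones and have fewer counts. RA and SAG were given to day 3, so cells taken at day 3.5 may be past the treatment. Day, sort, length and end of treatment, project code and depth therefore cannot be told apart in this comparison. In bulk RNA, fewer cells of a type and less RNA per cell cannot be told apart either.

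Prominin-1, the product of Prom1, is a membrane protein of the apical surface of neuroepithelial progenitors, and also of other epithelia. In the embryonic neural tube these progenitors line the ventricle, take a position along the head to tail axis from RA, FGF and Wnt signals and a dorsal or ventral identity from BMP, Wnt and hedgehog signals, and then leave the cell cycle as neurons. Progenitors at the ventral midline form the floor plate, which secretes sonic hedgehog. Proneural transcription factors drive neurogenesis, and Notch signaling from the newborn neurons holds their neighbours as progenitors.

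Library totals were 26926642 and 27074094 counts at day 2, 30115258 and 30264387 at day 3, and from 13173674 to 17113430 in the sorted group. A level below is a count scaled by TMM to the library total (CPM), and 3 counts in a library, taken as the floor, are 0.109 to 0.111 CPM at day 2 and 0.179 to 0.221 CPM in the sorted libraries, which covers counting error only. The log2 levels of replicates differed with a standard deviation over genes of 0.28 at day 2 and 0.319 to 0.452 in the sorted group. These differences followed the GC content of the genes, with Spearman's rho across genes of -0.35 at day 2 and -0.564 to -0.395 in the sorted group. Of 14 housekeeping genes, 13 did not pass the test and Gusb, a lysosomal enzyme, fell by 0.63 ± 0.13 on the log2 scale (edgeR adjusted p = 0.00601). Gusb lost the call without day 2 replicate 1 (edgeR adjusted p = 0.0804).

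A gene passed the test when its adjusted p from edgeR's quasi-likelihood test, with Benjamini-Hochberg adjustment over all 17006 genes, was below 0.05. By this rule 1877 genes (11%) were higher and 1963 (11.5%) were lower in the sorted libraries, 22.6% of all genes tested, and these shares are the background for the counts below. The absolute log2 difference was at least 1 for 1114 of the higher and 1328 of the lower genes, and the median over all genes tested was -0.02. These counts rested on both day 2 libraries. Leaving out day 2 replicate 1 gave 864 higher and 1121 lower genes, and leaving out day 2 replicate 2 gave 662 and 846. Leaving out sorted replicate 1 gave 1250 and 1314. In 28.4% of genes all 3 sorted libraries lay above both day 2 libraries, and in 31.6% all lay below.

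**Figure D1:**
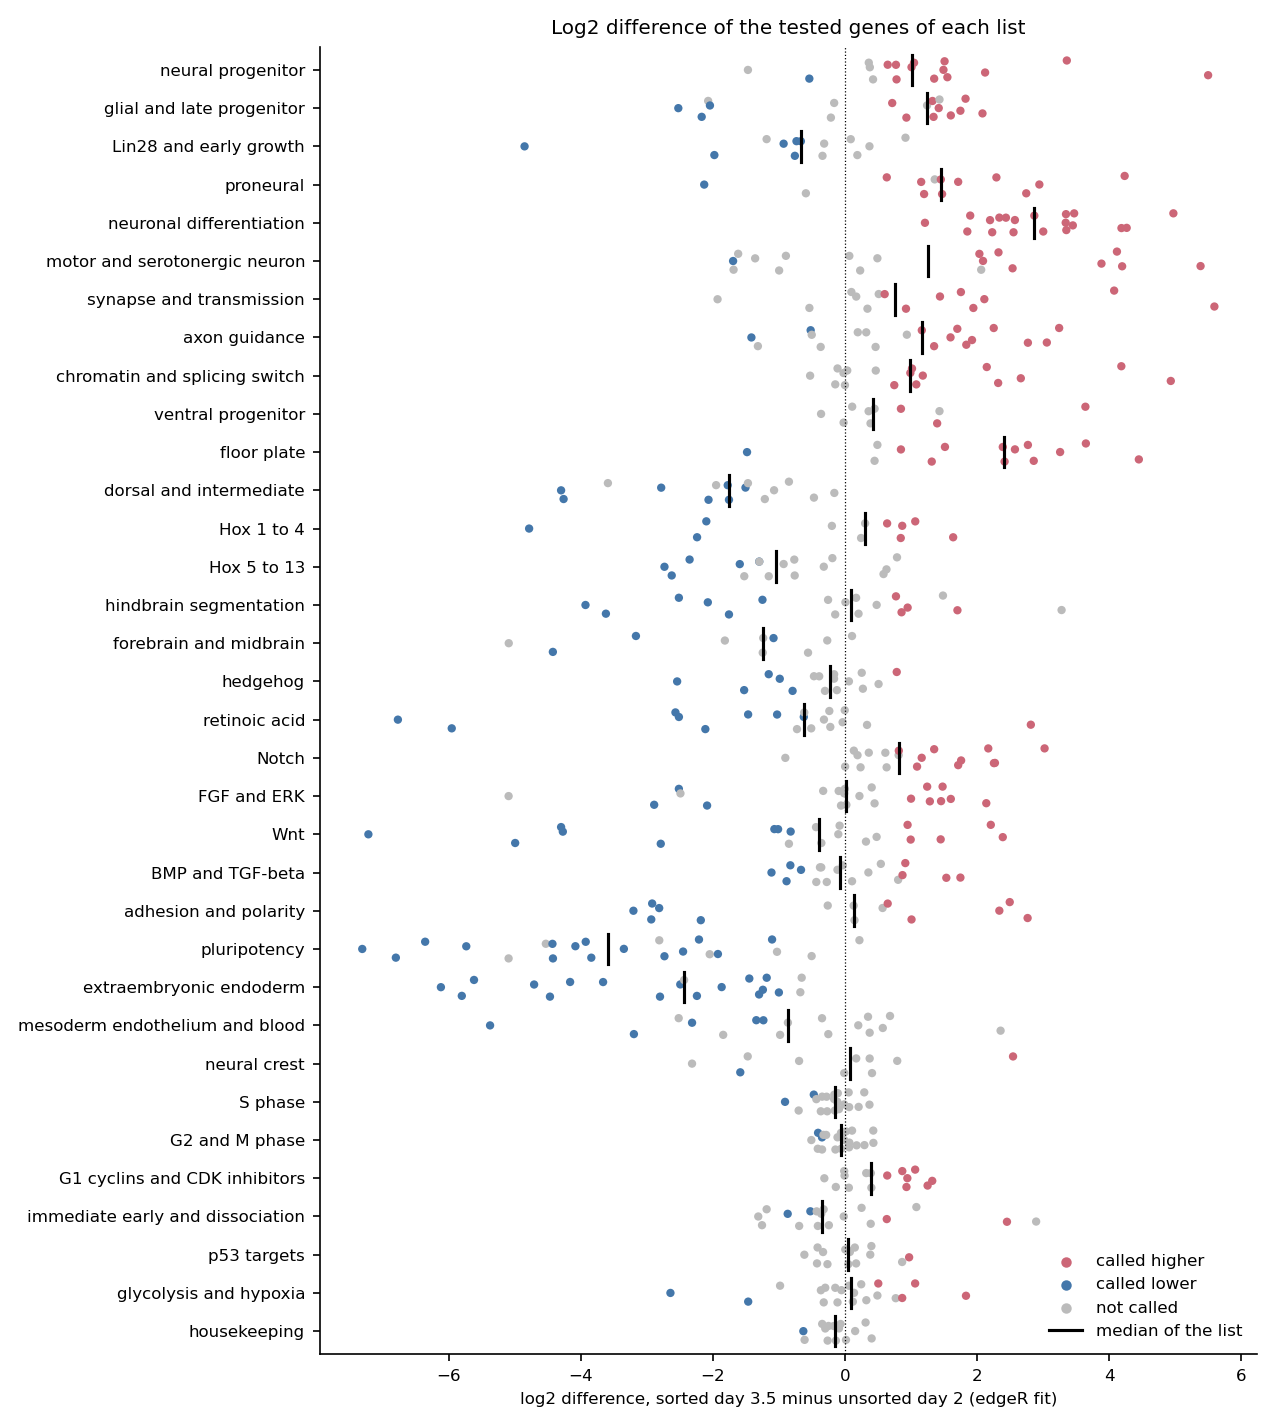
Each point is a tested gene of 34 gene lists, placed by its log2 difference of sorted day 3.5 minus unsorted day 2 from the edgeR fit, with genes that passed the test in red (higher) or blue (lower) and the list's median as a black bar. The lists of neuronal differentiation, floor plate and proneural genes have the highest medians (2.87, 2.40 and 1.45), and those of pluripotency and extraembryonic endoderm the lowest (-3.60 and -2.44); points at or under 3 counts in a group depend on the prior count of the fit.

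Most genes of the neural progenitor list were higher in the sorted libraries, with the marker of the sort among them. The sorted cells were selected for the product of Prom1, so its higher level is not independent of the sort. The 12 rises given next include it. Of 17 neural progenitor genes, 12 rose, 1 fell and 4 did not pass the test, with a median log2 difference of 1.01. The summed level of the list was 2148 to 2295 CPM at day 2, 3433 to 3933 at day 3 and 4519 to 4673 in the sorted libraries. Prom1 (chromosome 5, 43993620 to 44102032, GRCm38) stood at 163 and 135 CPM at day 2, 262 and 214 at day 3 and 334, 281 and 284 in the sorted libraries. All sorted libraries lay above those of days 2 and 3, and the log2 difference from day 2 was 1.01 ± 0.15 (SE, edgeR adjusted p = 0.000919), while that from day 3 was 0.33 ± 0.15 and was not tested.

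Fabp7 (chromosome 10, 57784881 to 57788450, GRCm38), the brain fatty acid binding protein of radial glia, had the largest difference of the list. Its level was 3.42 and 3.74 CPM at day 2, 16.9 and 30.9 at day 3 and 232, 144 and 111 in the sorted libraries, a log2 difference from day 2 of 5.50 ± 0.42 (edgeR adjusted p = 1.95e-05). The groups did not overlap, and unsorted day 3 lay between them. Ttyh1, a chloride channel family protein of neural stem cells, went from 2.53 and 2.33 CPM at day 2 to 25.3, 21.6 and 27.9 in the sorted libraries (3.36 ± 0.26, adjusted p = 2.12e-05, edgeR). Nes, the intermediate filament nestin, rose from 327 and 301 to 923, 933 and 822 CPM, and Vim, the filament vimentin, from 724 and 617 to 1221, 1359 and 1572 CPM. Their log2 differences were 1.51 ± 0.17 and 1.05 ± 0.17 (edgeR adjusted p = 0.000127 and 0.00151). The POU factors Pou3f2 (1.49 ± 0.19) and Pou3f3 (2.12 ± 0.30), the ciliogenic factor Rfx4 (1.55 ± 0.22) and the cadherin Cdh2 (0.65 ± 0.12) were also higher by this test. Cdh2 lost the call without day 2 replicate 2 (edgeR adjusted p = 0.0541).

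The SoxB1 factors Sox1 and Sox2, which maintain the neural progenitor state, did not rise by this test. Sox1 was 88.3 and 88.8 CPM at day 2 and 58.4, 58.8 and 65.4 in the sorted libraries, and fell by 0.54 ± 0.17 on the log2 scale (edgeR adjusted p = 0.0455), a call that was lost in 12 of 24 other settings. Sox2 was 171 and 141 CPM at day 2 and 224, 183 and 201 in the sorted libraries, which all lay above day 2, and did not pass the test (0.38 ± 0.17, edgeR adjusted p = 0.142). Pax6, a factor of intermediate progenitors, was 62.6 and 129.6 CPM at day 2 and 32.3, 42.7 and 29 in the sorted libraries, which lay below it without passing the test (edgeR adjusted p = 0.0587). Per length, in the deposited FPKM, the mean level in the sorted libraries was 1314 for Vim, 199 for Fabp7, 114 for Nes, 66.3 for Sox2 and 64.8 for Prom1, against 615, 4.44, 40.2, 51.6 and 33.1 at day 2. Sox1 lost the call without day 2 replicate 1 or 2 or sorted replicate 1, 2 or 3 (edgeR adjusted p = 0.064 to 0.206).

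**Figure D2:**
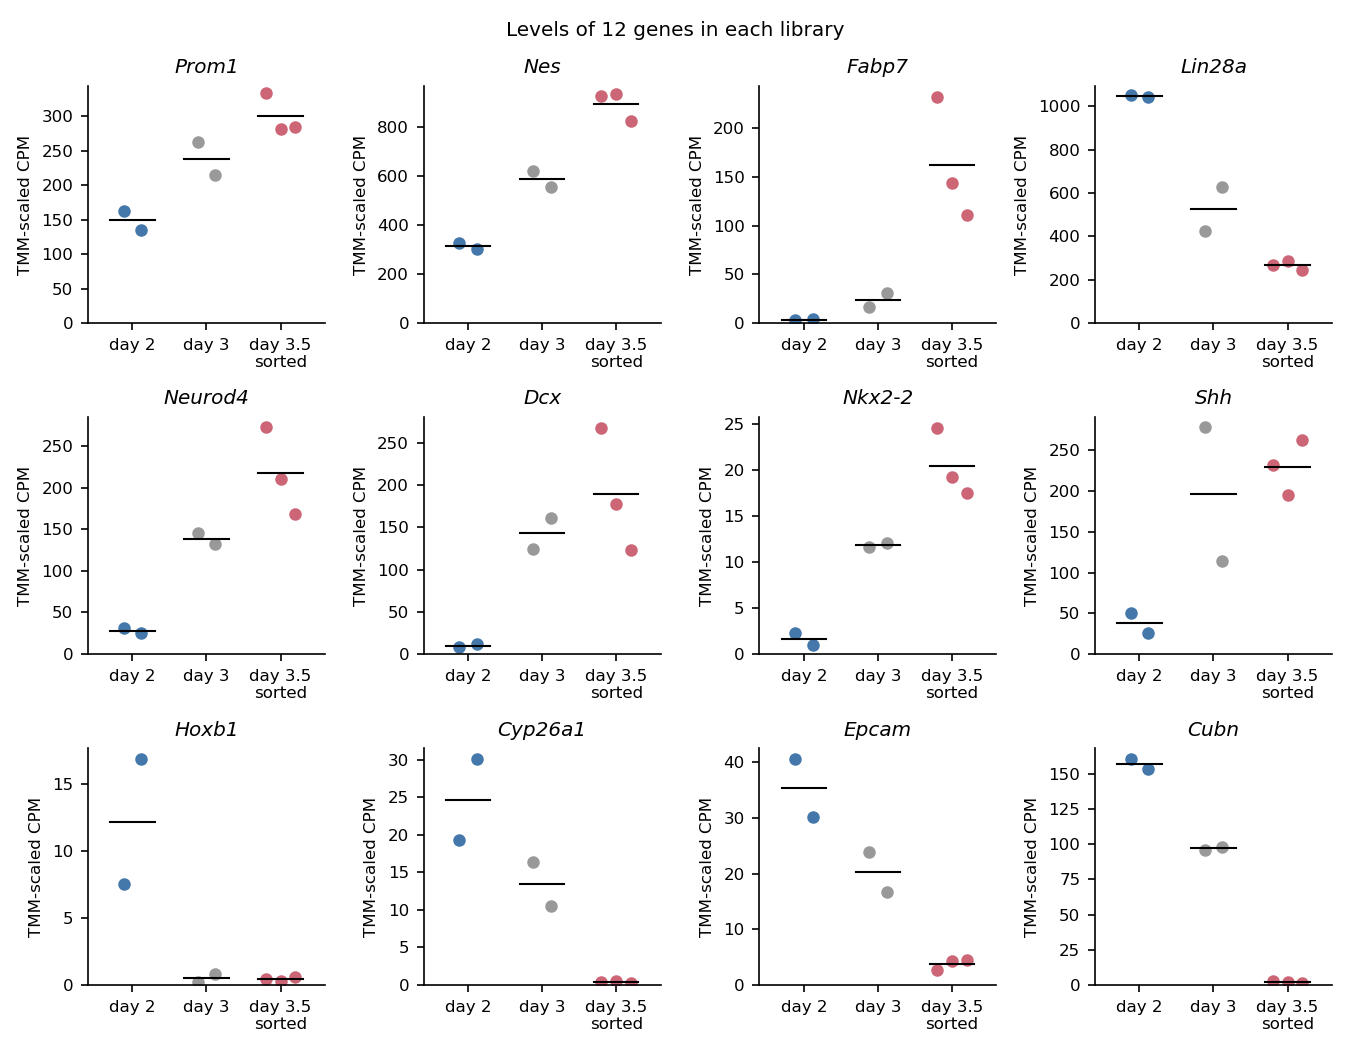
TMM-scaled CPM of 12 genes in each library (points) with the group mean (line) for unsorted day 2, unsorted day 3 and Prominin-1 sorted day 3.5. The sorted libraries lie above both day 2 libraries for Prom1, Nes, Fabp7, Neurod4, Dcx, Nkx2-2 and Shh, and below them for Lin28a, Hoxb1, Cyp26a1, Epcam and Cubn.

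Genes of later and gliogenic progenitors were mostly low at both times, and several rose. Of 17 tested genes of this list, 9 rose, 3 fell and 5 did not pass the test, with a median log2 difference of 1.24; without day 2 replicate 2 the counts were 4 and 1. Nfia, a factor of the switch to glia, went from 3.49 and 3.34 to 14.8, 15 and 13.6 CPM (2.08 ± 0.34, edgeR adjusted p = 0.00137). Sox9, which acts before it, rose from 6.02 and 6.03 to 17.9, 14.2 and 13.2 CPM (1.32 ± 0.27, adjusted p = 0.00481, edgeR). Id4, Sox8, Nfib, Zbtb20 and the glutamate transporter Slc1a3 were higher as well, by 1.75 ± 0.37, 1.83 ± 0.28, 1.42 ± 0.29, 1.34 ± 0.29 and 0.72 ± 0.16 on the log2 scale. Other members moved the other way. Nfix had a log2 difference of -2.045 (edgeR adjusted p = 0.00434), a call lost in 4 of 24 other settings. Pdgfra, the PDGF receptor of oligodendrocyte precursors and also of endoderm and mesenchyme, fell from 55.9 and 45.4 CPM at day 2 to 8.54, 10.1 and 7.79 in the sorted libraries (-2.52 ± 0.22, edgeR adjusted p = 3.82e-05), while unsorted day 3 held 69.6 and 42.9. The astrocyte genes Gfap and S100b and the oligodendrocyte factor Sox10 were below 1 CPM in every library of days 2, 3 and 3.5. Sox9, Zbtb20 and Slc1a3 lost the call without day 2 replicate 2, Id4 and Nfib without day 2 replicate 1 (edgeR adjusted p = 0.0572 to 0.125).

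Part of the Lin28 program, which marks early embryonic progenitors and promotes growth, was lower. Of 13 such genes none rose, 6 fell and 7 did not pass the test (median -0.67). In 9 of them all sorted libraries lay below both day 2 libraries, and in 3 all lay above. The shares over all genes were 31.6% and 28.4%. With an offset for GC content 2 genes of the list rose. Lin28a, the RNA-binding protein that blocks let-7 maturation, was 1053 and 1042 CPM at day 2, 425 and 628 at day 3 and 266, 287 and 246 in the sorted libraries, a log2 difference of -1.98 ± 0.16 (edgeR adjusted p = 2.7e-05). The day 3 libraries lay between the groups. Trim71, a let-7 target and partner of Lin28a, fell by 0.93 ± 0.16 and Prtg, protogenin, a receptor of early neuroepithelium, by 0.73 ± 0.14 (edgeR adjusted p = 0.00211 and 0.00295). L1td1, an RNA-binding protein of pluripotent cells, went from 10.3 and 10.2 CPM to 0.179, 0.519 and 0.368 (-4.85 ± 0.27). Lin28b, the paralog of Lin28a, was 262 and 237 CPM at day 2 and 214, 206 and 171 in the sorted libraries, below day 2 without passing the test (edgeR adjusted p = 0.137).

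Most tested genes of the proneural list were higher in the sorted libraries, but Neurog2 and Neurog3 were not. Of 13 tested proneural genes, 10 rose, 1 fell and 2 did not pass the test, with a median log2 difference of 1.45; without day 2 replicate 1 or 2 the count of higher genes was 6 or 5. Neurod4, a helix-loop-helix factor of neuronal precursors, rose from 30.9 and 25.7 to 273, 211 and 169 CPM (2.94 ± 0.22, edgeR adjusted p = 1.93e-05). Nhlh2 rose from 3.12 and 5.09 to 106, 72.5 and 53.1 CPM (4.24 ± 0.37, adjusted p = 3.82e-05, edgeR) and Insm1, a zinc finger factor of basal progenitors, from 13.4 and 7.45 to 83.3, 62.8 and 64 CPM (2.74 ± 0.33, adjusted p = 0.000244, edgeR). Hes6, an inhibitor of Hes1 that promotes neurogenesis, and Btg2, an antiproliferative gene of neurogenic divisions, rose by 1.47 ± 0.35 and 0.63 ± 0.15 (edgeR adjusted p = 0.0117 and 0.0115). Neurog2 (6.54 and 12.8 CPM, then 8.66, 6.35 and 4.12) did not pass the test, with overlapping groups, and its relative Neurog3 fell from 2.68 and 1.53 to 0.538, 0.713 and 0.147 CPM (edgeR adjusted p = 0.0121). Hes6 and Btg2 lost the call without day 2 replicate 1 or 2, Neurog3 without day 2 replicate 1 (edgeR adjusted p = 0.0824 to 0.114).

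The Notch pathway moved in the same direction. Of 19 Notch genes, 10 rose, none fell and 9 did not pass the test (median 0.82), and without day 2 replicate 1 the count was 5. Among ligands, Dll1 stood at 41.4 and 45.5 CPM at day 2, 65 and 65.3 at day 3 and 91.1, 97 and 103.5 in the sorted libraries (1.16 ± 0.23, edgeR adjusted p = 0.0047). Dll3, a ligand-like protein that acts within the cell, was 3.12 and 2.98, then 14.3 and 12.2, then 14, 14.4 and 15.8 CPM (2.27 ± 0.39, edgeR adjusted p = 0.00191), and Jag1 rose by 0.82 ± 0.16. The receptor Notch1 rose by 1.35 ± 0.28 (edgeR adjusted p = 0.00613), whereas Notch3 (123, 168 and 218 CPM in the sorted libraries) did not pass the test. Targets and modifiers differed among themselves. Hey1, a transcriptional target, went from 19.4 and 13.1 to 156, 119 and 120.4 CPM (3.02 ± 0.25, edgeR adjusted p = 2.89e-05). Nrarp, a feedback inhibitor, rose from 15.5 and 14.4 to 73.2, 63.6 and 65.2 CPM (2.17 ± 0.21, adjusted p = 6.49e-05, edgeR). Hes1 and Hes5, targets used as progenitor readouts, did not pass the test, and Hes5 was at 2.79 and 5.34 CPM at day 2 and 5.14, 4.73 and 5.81 in the sorted libraries, with overlap. Dll1 and Notch1 lost the call without day 2 replicate 1, Jag1 without day 2 replicate 2 (edgeR adjusted p = 0.0571 to 0.0776).

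The E-box letters CAGCTG, which proneural factors bind, were searched on both strands in RefSeq promoters of GRCm38.p6, taken as 250 bases before to 50 after a start. A promoter was found for 11170 of the 17006 genes tested, and 15.4% of these held the letters, against 16.2% of those called higher and 17.2% of those called lower. Among the called proneural and Notch genes that rose and had a promoter, 3 of 7 and 4 of 7 held them (Mfng is in both lists), as did 0 of 10 neural progenitor and 2 of 11 neuronal genes that rose. Shown are 3 of the rising genes, each 5′ to 3′ on its own strand, with capitals for the letters found. They stand for a ligand-like protein of the Notch pathway, a neurogenesis regulator and a neuronal RNA-binding protein (Elavl3, below) that rose together.
Dll3, chr7:28301736-28302035, minus strand: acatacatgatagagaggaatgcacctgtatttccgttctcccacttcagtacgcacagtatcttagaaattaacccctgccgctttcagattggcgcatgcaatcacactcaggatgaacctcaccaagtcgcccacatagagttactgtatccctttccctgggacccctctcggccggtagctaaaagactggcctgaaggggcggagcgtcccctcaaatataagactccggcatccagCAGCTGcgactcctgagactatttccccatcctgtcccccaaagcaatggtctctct
Hes6, chr1:91413173-91413472, minus strand: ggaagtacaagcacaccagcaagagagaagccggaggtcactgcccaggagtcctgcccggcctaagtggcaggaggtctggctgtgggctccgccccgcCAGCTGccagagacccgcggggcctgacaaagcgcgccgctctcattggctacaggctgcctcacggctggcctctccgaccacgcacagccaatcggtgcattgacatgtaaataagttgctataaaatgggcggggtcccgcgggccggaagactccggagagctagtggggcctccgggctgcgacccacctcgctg
Elavl3, chr9:22051974-22052273, minus strand: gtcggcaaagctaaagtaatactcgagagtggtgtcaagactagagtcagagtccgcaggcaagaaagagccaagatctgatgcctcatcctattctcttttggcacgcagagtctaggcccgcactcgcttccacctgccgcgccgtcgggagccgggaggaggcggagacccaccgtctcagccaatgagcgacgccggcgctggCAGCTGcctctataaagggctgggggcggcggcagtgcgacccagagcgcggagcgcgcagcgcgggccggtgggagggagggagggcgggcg
Counted from the start, the match began at -7 in Dll3, -150 in Hes6 and -43 in Elavl3. A match describes letters and is not a binding site.

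Neuronal genes were higher in the sorted libraries than at day 2, at levels that spanned those of unsorted day 3 cells. All 19 neuronal differentiation genes rose, with a median log2 difference of 2.87. The summed level of the list was 235 to 241 CPM at day 2, 1383 to 1574 at day 3 and 1319 to 2078 in the sorted libraries. The label names these cells progenitors, and no gene of the list was at 0 in them; the part of neuronal RNA in the other differences was not tested. Dcx, a microtubule protein of migrating neurons, was 8.4 and 11.3 CPM at day 2, 124.6 and 161 at day 3 and 268, 177 and 123 in the sorted libraries (4.27 ± 0.33, edgeR adjusted p = 1.93e-05). Sorted replicate 1 was the highest library, and sorted replicate 3 lay just below both day 3 libraries. Elavl3, an RNA-binding protein of early neurons, went from 12 and 12.8 to 142, 120.5 and 116 CPM (3.35 ± 0.19, edgeR adjusted p = 3.34e-06), with 97.6 and 78.8 at day 3. Nefm, a neurofilament, rose from 6.06 and 5.53 to 235, 162 and 149 CPM (4.97 ± 0.28, adjusted p = 3.12e-06, edgeR), with 261 and 168 at day 3. The transcription factors Ebf1, Ebf2 and Ebf3 of newborn neurons rose by 4.19 ± 0.33, 2.87 ± 0.19 and 3.34 ± 0.22. The smallest rise was that of Ina, alpha-internexin (42 and 57.7 CPM, then 157, 109.8 and 79.3, 1.21 ± 0.26, edgeR adjusted p = 0.00732). Per length, the mean FPKM in the sorted libraries was 16.8 for Dcx and 19.2 for Elavl3, below the 199 of Fabp7 and the 114 of Nes. By mean CPM in these libraries, Dcx (189) and Nefm (182) lay above Fabp7 (162). Levels of different genes do not measure the share of a cell type. Ina lost the call without day 2 replicate 1 (edgeR adjusted p = 0.0904).

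**Figure D3:**
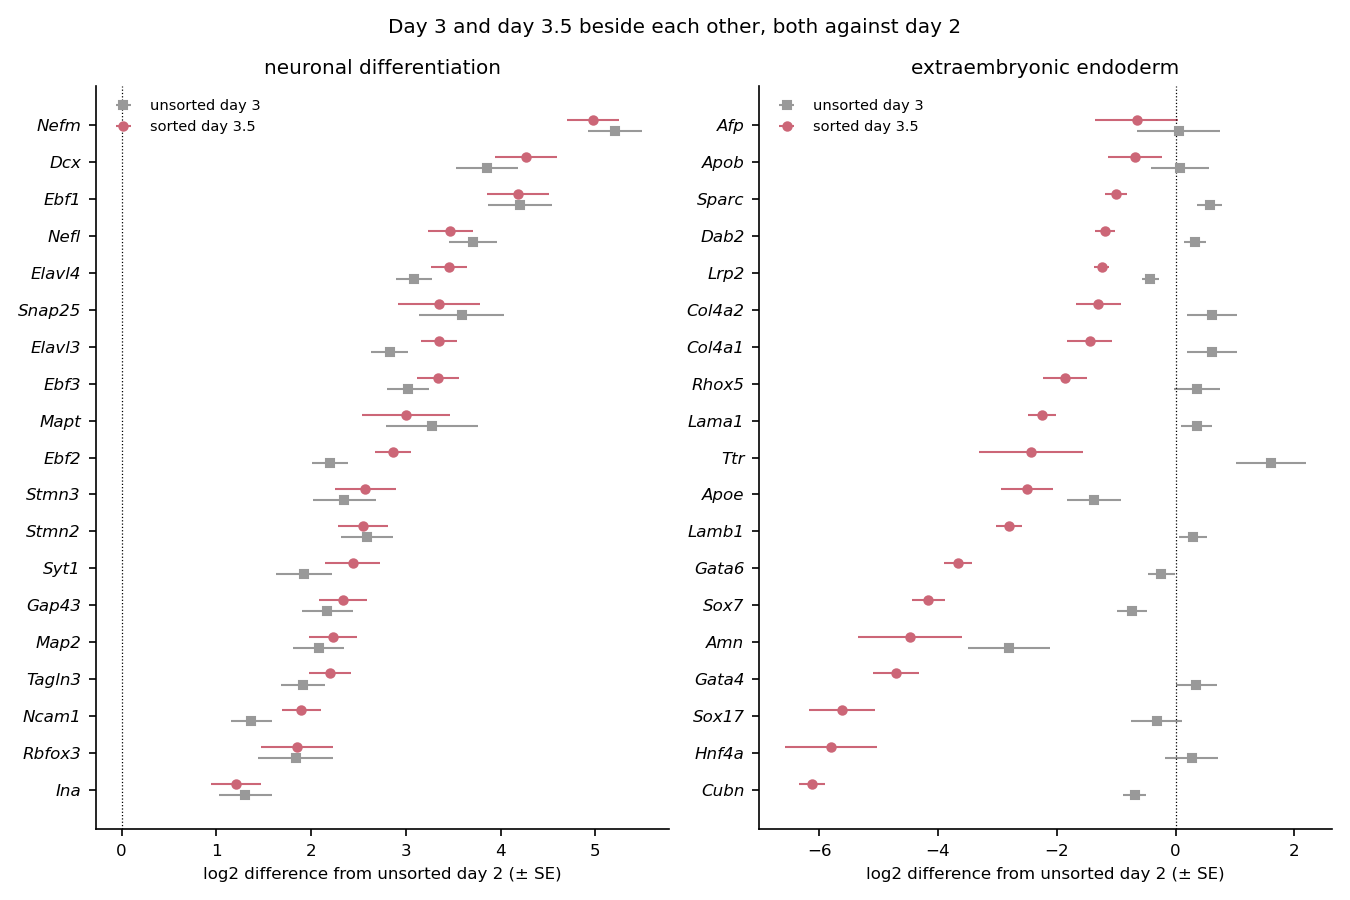
Fitted log2 difference from unsorted day 2 (± SE) of each tested gene of 2 lists, for unsorted day 3 (grey squares) and sorted day 3.5 (red circles); both use the same day 2 libraries. The neuronal genes lie to the right of 0 at both times, while 16 of 19 extraembryonic endoderm genes passed the test as lower at day 3.5 and the list's median at day 3 was 0.27; Hnf4a and Amn are at or under 3 counts in the sorted libraries.

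Genes of motor and serotonergic neurons rose in part. Of 18 tested motor and serotonergic genes, 8 rose, 1 fell and 9 did not pass the test. Isl1, a LIM factor of motor neurons, was 3.79 and 4.36 CPM at day 2, 62.2 and 48.7 at day 3 and 97.8, 68.1 and 58.5 in the sorted libraries (4.20 ± 0.35, edgeR adjusted p = 2.89e-05). The sorted libraries lay far above day 2 and within or above the range of day 3. Lhx4 (4.12 ± 0.40), Phox2a (3.88 ± 0.60), Tbx20 (2.54 ± 0.36) and Isl2 (2.09 ± 0.53) rose too, and Chat, the acetylcholine synthesis enzyme, went from 0.112 and 0.109 CPM, at the floor, to 5.68, 3.89 and 4.85 (edgeR adjusted p = 9.36e-05). Of the serotonergic genes, Gata2 was 7.95 and 8.11 CPM at day 2 and 2.75, 3.5 and 5.88 in the sorted libraries, Gata3 5.24 and 7.42 and 2.75, 4.08 and 3.38, and Tph2 and Slc6a4 were below 1 CPM in every library of both groups. The T-box gene Tbx3 fell by 1.69 ± 0.32 (edgeR adjusted p = 0.00358). Isl2 lost the call without day 2 replicate 1 or 2 or sorted replicate 2 (edgeR adjusted p = 0.0524 to 0.133).

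Genes of axon growth, synapses and neuronal splicing rose in part. Of 19 axon guidance genes, 10 rose and 2 fell. Slit1 and Slit2, secreted repellents made by floor plate and motor neurons, rose from 91.4 and 69.6 to 476, 499.6 and 672 CPM and from 80.7 and 46.3 to 605, 473 and 506 CPM (2.77 ± 0.41 and 3.06 ± 0.31, edgeR adjusted p = 0.000832 and 8.53e-05). The receptors Nrp1 (1.35 ± 0.18), Nrp2 (1.16 ± 0.16), Plxna4 (2.25 ± 0.33) and Epha3 (3.24 ± 0.61) rose. The Slit receptor Robo2 (59.3 and 53 CPM at day 2, 96.4, 80.2 and 55.5 sorted) did not pass the test, and the netrin receptor Unc5b fell by 1.42 ± 0.32, a fall lost without day 2 replicate 2. Of 14 tested synapse genes, 8 rose and none fell, and the count was 3 or 4 with day 2 replicate 1 or 2 left out and 5 with sorted replicate 1 left out. Most levels were low, with Gria2, an AMPA receptor subunit, at 0 and 0.218 CPM at day 2 and 9.26, 5.38 and 1.91 in the sorted libraries. Of 17 chromatin and splicing genes that switch with neuronal differentiation, 10 rose and none fell (6 without day 2 replicate 1). The splicing regulators Celf3 (4.18 ± 0.40), Srrm4 (2.66 ± 0.21), Nova2 (2.15 ± 0.15) and Ptbp2 (1.18 ± 0.17) rose (edgeR adjusted p = 5.69e-05, 2.12e-05, 1.3e-05 and 0.000773). Ptbp1, which represses Ptbp2 in progenitors, was 508 and 519 CPM at day 2 and 285, 363 and 422 in the sorted libraries without passing the test. Gria2 lost the call without day 2 replicate 1 (edgeR adjusted p = 0.0542).

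Some ventral identity genes were higher in the sorted libraries. Of 10 ventral progenitor genes, 3 rose, none fell and 7 did not pass the test. Nkx2-2, the factor of the p3 domain next to the floor plate, was 2.27 and 1.02 CPM at day 2, 11.7 and 12.1 at day 3 and 24.6, 19.3 and 17.6 in the sorted libraries (3.64 ± 0.38, edgeR adjusted p = 9.23e-05). Nkx6-1, which covers the ventral progenitor domains, went from 70.8 and 58.3 to 166, 165 and 179 CPM (1.40 ± 0.14, adjusted p = 8.52e-05, edgeR). The sorted libraries lay above day 3 for both. Olig2, of the motor neuron domain, was 32.1 and 33.1 CPM at day 2, 14.9 and 45.1 at day 3 and 42.3, 47.6 and 35.4 in the sorted libraries and did not pass the test (edgeR adjusted p = 0.501).

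The floor plate list had a median log2 difference of 2.40: of 14 genes 11 rose, 1 fell and 2 did not pass the test, and 6 rose without day 2 replicate 2. Shh (chromosome 5, 28456815 to 28467256, GRCm38), the sonic hedgehog ligand, was 50.8 and 26.4 CPM at day 2, 278 and 114 at day 3 and 232, 195 and 263 in the sorted libraries (2.57 ± 0.39, edgeR adjusted p = 0.000871). The day 3 replicates spanned the sorted ones. Spon1, an adhesion protein secreted by the floor plate, went from 34.8 and 37.8 to 472, 397 and 495 CPM (3.65 ± 0.36, edgeR adjusted p = 7.54e-05). The serine protease gene Corin rose from 1.82 and 0.472 to 25.6, 23.2 and 26.5 CPM (4.45 ± 0.69, adjusted p = 0.00102, edgeR). Per length, Ntn1, the axon attractant netrin, rose from a mean FPKM of 67.2 at day 2 to 166 in the sorted libraries, against 11.5 and 68.4 for Shh. Wnt5a was lower in the unsorted libraries of both days (7.73 and 7.74 CPM at day 2, 12.2 and 16.4 at day 3) and 44.9, 38.8 and 37.9 CPM in the sorted ones (2.39 ± 0.21, edgeR adjusted p = 3.58e-05). Foxa2, the forkhead factor that induces floor plate, overlapped between the groups (105 and 62.4 CPM at day 2, 111, 94.1 and 138 sorted) and did not pass the test (edgeR adjusted p = 0.248), and its relative Foxa1 rose by 0.85 ± 0.22. The gene of the list that fell was Lmx1a, a roof plate and midbrain factor (1.67 and 1.38 CPM at day 2, 0.598, 0.648 and 0.368 sorted, edgeR adjusted p = 0.016). Foxa1 lost the call without day 2 replicate 2 or sorted replicate 1, Lmx1a without day 2 replicate 1 or 2 or sorted replicate 3 (edgeR adjusted p = 0.0543 to 0.2).

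Dorsal and intermediate genes were lower. Of 15 tested genes none rose, 7 fell and 8 did not pass the test, with a median of -1.76 (-1.63 with genes at 0 set to the floor). The count of falls was 4 without day 2 replicate 2. Msx1, a target of dorsal BMP signals, was 8.1 and 16.4 CPM at day 2, 0.566 and 1.95 at day 3 and 0.538, 0.843 and 0.515 in the sorted libraries (-4.26 ± 0.50, edgeR adjusted p = 0.000208), which lay below day 2 and overlapped day 3. Zic2 and Zic1, zinc finger genes of dorsal neural tissue, fell by 2.78 ± 0.34 and 1.78 ± 0.34 (edgeR adjusted p = 0.000259 and 0.00347), Pax3 by 2.07 ± 0.49 and the intermediate factor Dbx2 by 1.51 ± 0.42. At unsorted day 3 the list's median difference from day 2 was -1.30. Pax3 lost the call without day 2 replicate 2 or sorted replicate 1, Dbx2 without day 2 replicate 1 or 2 or sorted replicate 1 or 3 (edgeR adjusted p = 0.0508 to 0.131).

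Hox genes, which give position along the axis, moved in both directions. Of 11 genes of groups 1 to 4, 5 rose, 3 fell and 3 did not pass the test. Among those that fell was Hoxb1, of group 1, whose genes respond early to RA and are then shut down. Hoxb1 (chromosome 11, 96365752 to 96368256, GRCm38) was 7.54 and 16.9 CPM at day 2, 0.22 and 0.845 at day 3 and 0.418, 0.324 and 0.588 in the sorted libraries (-4.78 ± 0.49, edgeR adjusted p = 9.23e-05). Day 2 replicate 2 was the higher day 2 library, and sorted and day 3 libraries overlapped. Those that rose belonged to groups 2 to 4. Hoxb3 was 4.68 and 7.63 CPM at day 2, 10.9 and 7.31 at day 3 and 19.8, 18.7 and 19 in the sorted libraries (1.64 ± 0.31, edgeR adjusted p = 0.00352). Hoxb4 was 15 and 20.9, 26.1 and 25.4 and 42.1, 35.2 and 35.3 CPM (1.06 ± 0.21, adjusted p = 0.00414, edgeR). For both, all sorted libraries lay above all unsorted ones of days 2 and 3. Hoxa2, Hoxd3 and Hoxc4 rose by 0.64 ± 0.19, 0.84 ± 0.19 and 0.87 ± 0.28. With day 2 replicate 1 left out the count of 5 rises was 0, with day 2 replicate 2 left out 2, and with sorted replicate 1 or 2 left out 3. Of 16 tested genes of groups 5 to 13 none rose and 5 fell, 1 of them without day 2 replicate 2, 2 without sorted replicate 1 and 3 without sorted replicate 2 or 3. Hoxb9 was 5.02 and 20.9 CPM at day 2 and 2.39, 2.08 and 1.32 in the sorted libraries (-2.73 ± 0.60, edgeR adjusted p = 0.00775). Other genes of these groups had positive differences without passing the test. Hoxb7 was 2.56 and 4.29 CPM at day 2 and 6.63, 5.96 and 5.15 in the sorted libraries (0.79 ± 0.30), with no overlap. Hoxb5 was 2.53 and 9.56 and 13.7, 9.14 and 5.07 CPM (0.63 ± 0.57) and Hoxb8 8.06 and 18.6 and 22, 20.2 and 17.7 CPM (0.58 ± 0.34), with overlap in both. Without day 2 replicate 2 the log2 difference of Hoxb9 was -1.37, and without day 2 replicate 1 that of Hoxc4 was 0.55. Hoxb3 and Hoxb4 lost the call without day 2 replicate 1, Hoxa2 without day 2 replicate 1 or 2 or sorted replicate 1, 2 or 3 (edgeR adjusted p = 0.055 to 0.205). Hoxd3 lost the call without day 2 replicate 1 or 2, Hoxc4 without day 2 replicate 1 or 2 or sorted replicate 1 or 2 (edgeR adjusted p = 0.0555 to 0.345). Hoxb9 lost the call without day 2 replicate 2 (edgeR adjusted p = 0.174).

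**Figure D4:**
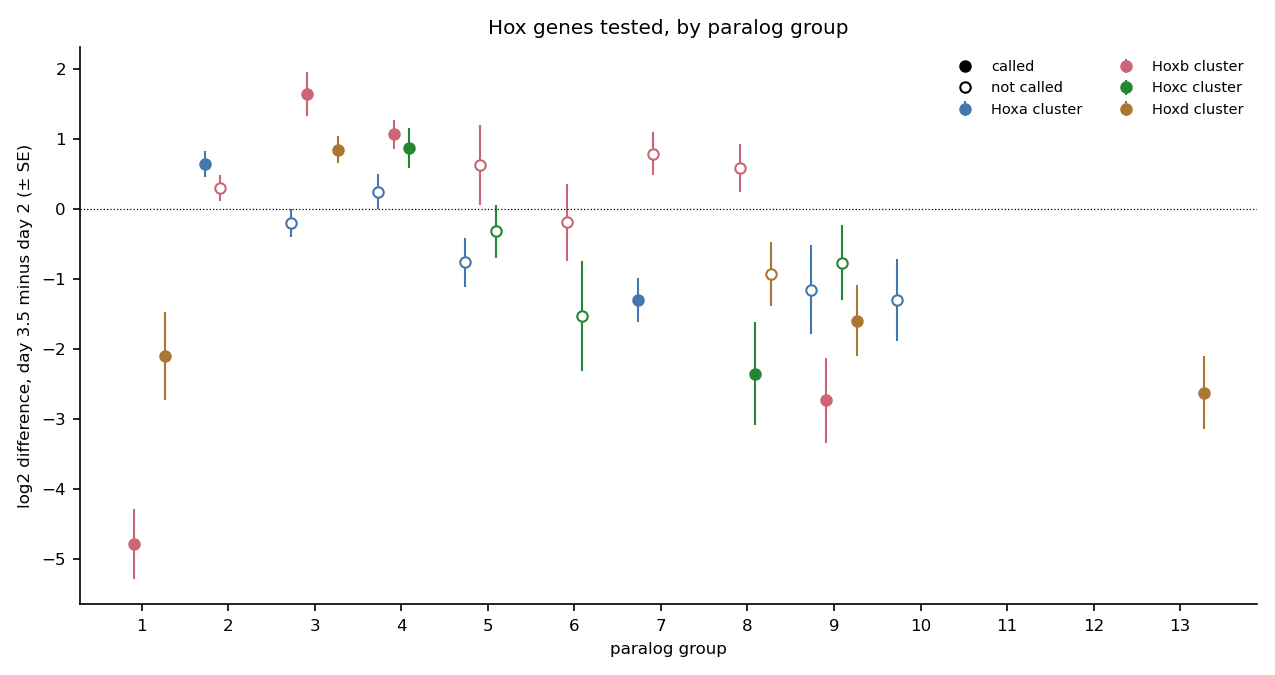
Log2 difference of sorted day 3.5 minus day 2 (± SE, edgeR fit) of tested Hox genes by paralog group (1 gene is not shown), coloured by cluster, filled where the test was passed. The points of group 1 lie below 0 (Hoxb1 at -4.78), the filled points of groups 2 to 4 lie between 0.64 and 1.64, and no gene of groups 5 to 13 is filled above 0.

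Among 18 hindbrain segmentation genes 4 rose and 6 fell. Nr2f1, an orphan receptor of neural progenitors, went from 50.4 and 61.1 to 196, 192 and 157 CPM (1.70 ± 0.23, edgeR adjusted p = 0.000413). The Eph receptors Epha4, Ephb2 and Epha7 rose by 0.95 ± 0.20, 0.86 ± 0.18 and 0.77 ± 0.22; 2 genes rose without day 2 replicate 1 or 2. Fgf3, an FGF ligand of the hindbrain, and Gbx2, a homeobox factor of its anterior part, fell by 2.52 ± 0.31 and 2.08 ± 0.27 (edgeR adjusted p = 0.000248 and 0.000399). Of 10 tested forebrain and midbrain genes none rose and 3 fell (1 without day 2 replicate 2), and the summed level of the list was 7.51 to 11.4 CPM at day 2 and 4.08 to 5.22 in the sorted libraries. Otx2, the forebrain and midbrain factor, was 0.149 and 0.182 CPM at day 2 and 0 in every sorted library, and did not pass the test (edgeR adjusted p = 0.0516). Epha4 lost the call without day 2 replicate 2, Ephb2 without day 2 replicate 1 (edgeR adjusted p = 0.0871 to 0.0896). Epha7 lost the call without day 2 replicate 1 or 2 or sorted replicate 1 or 2 (edgeR adjusted p = 0.0864 to 0.159).

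Part of the RA genes were lower in the sorted libraries, and the list's median difference from day 2 was already -0.80 at unsorted day 3. The median difference of the sorted libraries from unsorted day 3 was -0.13, and neither median was tested. Of 18 tested genes 1 rose, 8 fell and 9 did not pass the test, with a median of -0.62, and 4 fell without day 2 replicate 2 and 5 without sorted replicate 3. Cyp26a1, which breaks RA down and is itself induced by it, was 19.2 and 30.1 CPM at day 2, 16.4 and 10.5 at day 3 and 0.358, 0.584 and 0.221 in the sorted libraries (-5.95 ± 0.34, edgeR adjusted p = 3.34e-06). The unsorted libraries of days 2 and 3 lay above 10 CPM and all sorted ones below 1. Stra8, a gene induced by RA in germ cells and in stem cells, was 96.4 and 239 CPM at day 2, 3.99 and 9.88 at day 3 and 2.21, 1.88 and 0.368 in the sorted libraries (-6.77 ± 0.57, adjusted p = 3.1e-05, edgeR). Stra6, the retinol transporter, fell by 2.57 ± 0.29, the receptors Rarb and Rarg by 1.03 ± 0.29 and 2.11 ± 0.33, Crabp2, an RA-binding protein, by 0.62 ± 0.17 and Dhrs3, a retinal reductase, by 2.51 ± 0.48 (edgeR adjusted p = 0.000159, 0.0247, 0.00111, 0.0195 and 0.00385). Cyp26b1 fell by 1.47 ± 0.41, from 3.79 and 11.7 to 2.81, 3.63 and 1.91 CPM, a call that was lost in 8 of 24 other settings. Dhrs3 was 9.07 and 36.2 CPM at day 2 and 4.78, 4.73 and 2.28 in the sorted libraries, and without day 2 replicate 2 the log2 difference was -1.20 for it and -0.44 for Cyp26b1. The receptor gene Rxrg rose, from 0.112 and 0.291 to 1.85, 1.3 and 1.18 CPM (edgeR adjusted p = 0.0203), a rise lost without day 2 replicate 1, day 2 replicate 2 or sorted replicate 1. Rarb lost the call without day 2 replicate 2 or sorted replicate 2 or 3, Crabp2 without day 2 replicate 2 or sorted replicate 1, 2 or 3 (edgeR adjusted p = 0.0534 to 0.244). Dhrs3 lost the call without day 2 replicate 2, Cyp26b1 without day 2 replicate 2 or sorted replicate 1 or 3 (edgeR adjusted p = 0.0677 to 0.531).

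The ligand Shh rose, whereas most other hedgehog genes did not pass the test or fell. Of 16 hedgehog genes 1 rose, 5 fell and 10 did not pass the test (median -0.23). Ptch1, the receptor and a target, was 514 and 466 CPM at day 2, 452 and 457 at day 3 and 355, 467 and 489 in the sorted libraries (-0.17 ± 0.17, edgeR adjusted p = 0.528). Gli1, a target used as readout, was 76.4 and 77.1, 42.1 and 70.7 and 36.5, 67.8 and 71.5 CPM (-0.39 ± 0.34, adjusted p = 0.458, edgeR). For Ptch1 the groups overlapped, and for Gli1 the sorted libraries lay below day 2, with sorted replicate 1 the lowest. Hhip, a decoy receptor and target, rose by 0.78 ± 0.21 (edgeR adjusted p = 0.023), a rise lost without day 2 replicate 1 or 2 or sorted replicate 1 or 2. The transducers Gli2 and Gli3 fell by 1.53 ± 0.31 and 1.15 ± 0.20, the coreceptors Cdon and Gas1 by 0.79 ± 0.14 and 0.99 ± 0.26, and Scube2, which helps to release the ligand, by 2.54 ± 0.30 (edgeR adjusted p = 0.00487, 0.002, 0.00276, 0.019 and 0.000202). Without day 2 replicate 2, 3 of these genes fell. Smo, which SAG binds, was 184 and 196 CPM at day 2 and 153, 170.2 and 185 in the sorted libraries. Gli2 lost the call without day 2 replicate 2, Gas1 without day 2 replicate 2 or sorted replicate 2 or 3 (edgeR adjusted p = 0.0509 to 0.219).

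Wnt genes moved in both directions. Of 20 Wnt genes 5 rose, 8 fell and 7 did not pass the test (median -0.40). Leaving out day 2 replicate 1 or 2 or sorted replicate 1 or 2 left 5 falls, and leaving out day 2 replicate 2 left 3 rises. Wnt5a, given above, Wnt7a (3.87 and 5.63 CPM, then 21.1, 22.6 and 22.1), Wnt4 (0.95 ± 0.28), the secreted inhibitor Sfrp1 (164 and 129.5 CPM, then 385, 418 and 401) and the receptor Fzd3 (1.00 ± 0.19) rose. Among targets of beta-catenin, Axin2 fell by 1.07 ± 0.29 and Lef1 by 1.01 ± 0.32 (edgeR adjusted p = 0.0228 and 0.0411). Sp5 fell from 6.65 and 7.85 CPM at day 2 and 1.13 and 2.18 at day 3 to 0.478, 0.259 and 0.368 (-4.27 ± 0.43, adjusted p = 8.5e-05, edgeR). Dkk1, a target and secreted inhibitor, was 8.14 and 6 CPM at day 2, 3.93 and 3.96 at day 3 and 0.239, 0.389 and 0 in the sorted libraries (-4.99 ± 0.54, edgeR adjusted p = 0.000121). All sorted libraries lay below those of days 2 and 3 for both genes. The ligands Wnt1 and Wnt8a were 6.43 and 5.78 and 12.6 and 8.51 CPM at day 2 and below 1 CPM in every sorted library. Wnt4 lost the call without day 2 replicate 1 or 2 or sorted replicate 1, 2 or 3, Fzd3 without day 2 replicate 2 (edgeR adjusted p = 0.0507 to 0.23). Axin2 and Lef1 lost the call without day 2 replicate 1 or 2 or sorted replicate 1 or 2 (edgeR adjusted p = 0.0732 to 0.196).

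The letters CTTTGA or TCAAAG, which TCF and LEF factors bind, occurred in 11.8% of the 11170 promoters, in 12.1% of those called higher and in 11.9% of those called lower. Among the called Wnt genes that fell and had a promoter, 2 of 7 held them, Sp5 and Dkk1, each with 2 matches. Of genes that rose, 0 of 2 Wnt genes and 3 of 10 neural progenitor genes held them. The promoters of Sp5 and Dkk1 are shown with the letters in capitals since both genes fell to near the floor.
Sp5, chr2:70474673-70474972, plus strand: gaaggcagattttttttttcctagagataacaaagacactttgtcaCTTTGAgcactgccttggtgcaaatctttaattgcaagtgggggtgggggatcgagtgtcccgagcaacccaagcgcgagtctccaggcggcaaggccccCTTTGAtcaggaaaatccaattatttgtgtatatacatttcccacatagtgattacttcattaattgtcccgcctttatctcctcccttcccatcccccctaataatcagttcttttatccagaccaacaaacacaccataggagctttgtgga
Dkk1, chr19:30549447-30549746, minus strand: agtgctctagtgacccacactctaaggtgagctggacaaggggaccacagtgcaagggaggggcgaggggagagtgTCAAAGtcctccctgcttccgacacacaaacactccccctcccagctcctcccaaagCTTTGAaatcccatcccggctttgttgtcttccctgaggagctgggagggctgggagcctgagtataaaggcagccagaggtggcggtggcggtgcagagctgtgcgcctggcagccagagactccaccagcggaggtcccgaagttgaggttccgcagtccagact
The matches began at -204 and -104 from the start in Sp5 and at -174 and -117 in Dkk1. The letters TGGGAA of RBPJ, AGATAA of GATA factors and CCACCCA of GLI factors were searched in the same way and stood in 23%, 6.18% and 10% of all promoters, in 21.7%, 6.03% and 11% of those called higher and in 23.3%, 8.08% and 11.7% of those called lower. The RBPJ letters stood in 1 of 7 Notch genes that rose, the GATA letters in 1 of 11 extraembryonic endoderm genes that fell and the GLI letters in 0 of 5 hedgehog genes that fell.

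Of 21 FGF genes 7 rose and 3 fell, and 4 rose without day 2 replicate 2. Feedback targets of ERK were among those that rose, with Dusp6 from 39.4 and 44.1 to 102, 106 and 97.5 CPM (1.29 ± 0.17, edgeR adjusted p = 0.000365), Dusp4 by 1.24 ± 0.18 and Spry4 by 1.48 ± 0.22. Etv5, an effector of the pathway (19.2 and 15.4 CPM at day 2, 26.9, 25.3 and 18.5 sorted), did not pass the test. Fgfr3 rose from 59.8 and 48.5 to 137, 151 and 205 CPM and Fgfr4 fell by 2.09 ± 0.47. Fgf15, a ligand of early neural tissue, was 47.9 and 41.2 CPM at day 2, 4.37 and 16.1 at day 3 and 3.77, 9.27 and 5 in the sorted libraries (-2.89 ± 0.48, edgeR adjusted p = 0.00161). Of 18 BMP and TGF-beta genes 4 rose and 4 fell. Those that rose included Bmpr1b (1.54, edgeR adjusted p = 0.0019), which was called in each of 24 other settings. The rises of Gdf11 (0.91) and Tgfbr1 (0.87) were lost in 6 and 3 of these settings. The falls of Bmp4 (-1.11 ± 0.31), Bmp2 (-0.83 ± 0.22), Id1 (-0.88 ± 0.25) and Id2 (-0.67 ± 0.21) were all lost without day 2 replicate 1, day 2 replicate 2 or sorted replicate 1, and 1 and 2 of them held without sorted replicate 2 and 3. Without day 2 replicate 1 and 2, 1 and 2 genes rose. Fgfr3 lost the call without day 2 replicate 2, Fgfr4 without day 2 replicate 1 (edgeR adjusted p = 0.0557 to 0.0643).

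Adhesion and polarity genes moved in both directions, with 5 of 14 tested higher and 5 lower (3 higher without day 2 replicate 2). Cdh1, E-cadherin, was 322 and 232 CPM at day 2, 198 and 171 at day 3 and 58, 63.5 and 61.4 in the sorted libraries (-2.18 ± 0.15, edgeR adjusted p = 1.19e-05). Epcam, an adhesion protein of epithelia and stem cells, was 40.6 and 30.2, 23.8 and 16.7 and 2.75, 4.34 and 4.49 CPM (-3.20 ± 0.24, adjusted p = 1.65e-05, edgeR). In both, day 3 lay between the groups and nearer to day 2 on the log2 scale, with fitted differences from day 2 of -0.58 ± 0.17 and -0.81 ± 0.24. The tight junction genes Ocln, Cldn6 and Cldn7 fell by 2.92 ± 0.31, 2.81 ± 0.34 and 2.93 ± 0.58. L1cam, of axons, rose by 2.77 ± 0.34, Celsr3, of axon tract formation, by 2.49 ± 0.29, and Cdh11 by 2.34 ± 0.36 (edgeR adjusted p = 0.000256, 0.000188 and 0.000988).

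Genes of extraembryonic endoderm, cells that can arise beside neural ones in stem cell cultures, were low in the sorted libraries and not at unsorted day 3. Of 19 tested genes none rose, 16 fell and 3 did not pass the test, against 11.5% of all genes lower, with a median log2 difference of -2.44. The summed level of the list was 4506 to 5032 CPM at day 2, 4618 to 7850 at day 3 and 1242 to 1690 in the sorted libraries. Cubn (chromosome 2, 13276338 to 13491813, GRCm38), the endocytic receptor cubilin, was 160.3 and 153 CPM at day 2, 96 and 98.2 at day 3 and 3.11, 2.01 and 1.54 in the sorted libraries (-6.12 ± 0.22, edgeR adjusted p = 2.2e-07), the smallest adjusted p of the whole comparison. Gata4, a GATA factor of endoderm, was 27.5 and 24.2 CPM at day 2, 40.2 and 25.5 at day 3 and 0.538, 1.75 and 0.662 in the sorted libraries (-4.71 ± 0.38, edgeR adjusted p = 2.69e-05). Its relative Gata6 was 21.5 and 20.9, then 20 and 15.9, then 2.21, 1.3 and 1.47 CPM (-3.66 ± 0.24, adjusted p = 8.45e-06, edgeR). Sox17 and Sox7, SOX factors of endoderm, fell by 5.62 ± 0.56 and 4.16 ± 0.28. The laminin subunit Lamb1, a basement membrane component that this endoderm makes in quantity, was 779.6 and 659.9 CPM at day 2, 1086 and 687 at day 3 and 85, 109.5 and 115 in the sorted libraries (-2.80 ± 0.22, adjusted p = 2.12e-05, edgeR). For each of these genes the sorted libraries lay far below those of days 2 and 3. Sox17 was at 0 in sorted replicate 3, and no tested gene of the list was at 0 in every library of a group. Fewer endoderm cells, less RNA per cell, the sort, the day and the project code cannot be told apart here, and the part of these genes in the other differences was not tested.

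**Figure D5:**
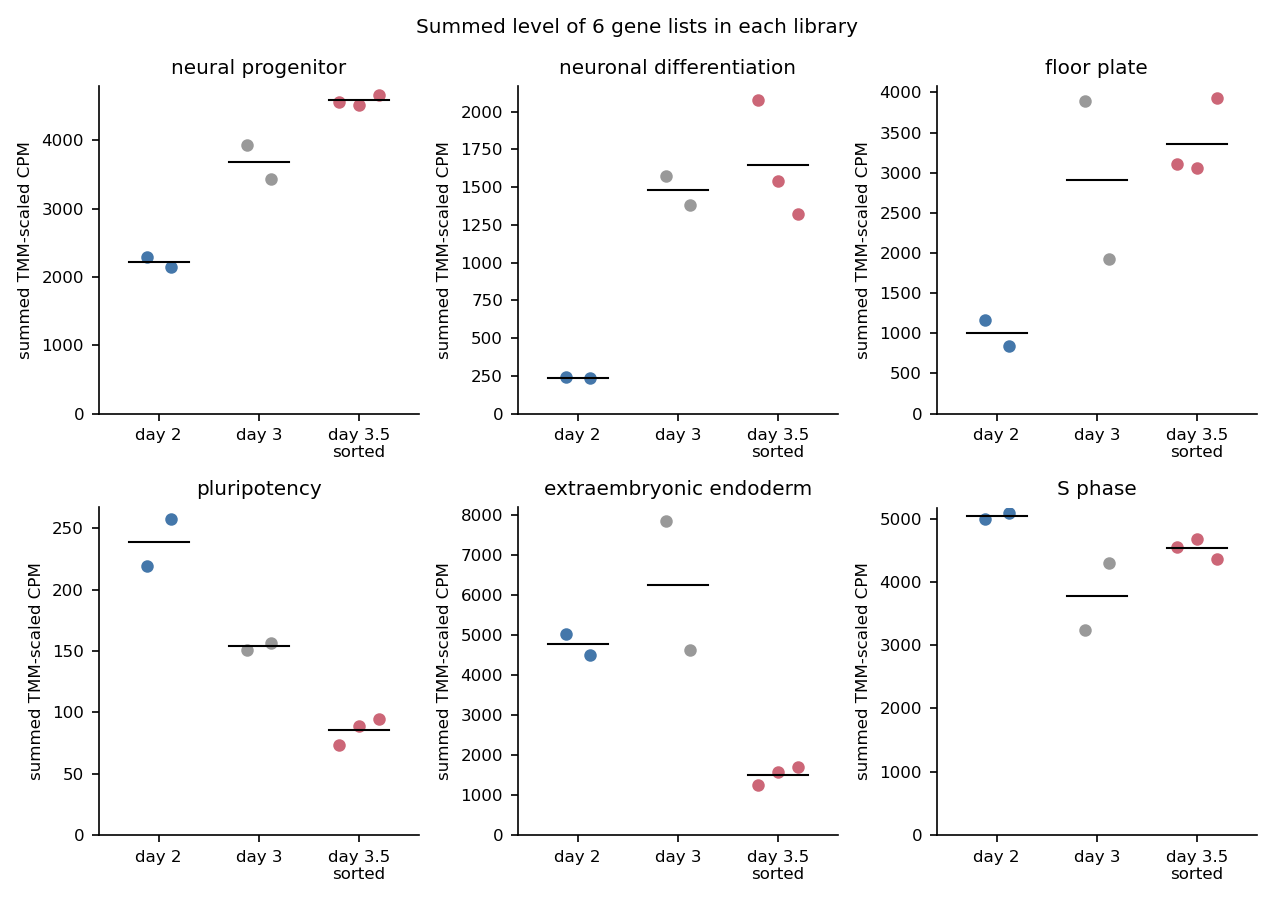
Summed TMM-scaled CPM of 6 gene lists in each library (points, with the group mean as a line) at unsorted day 2, unsorted day 3 and sorted day 3.5. The sum of neural progenitor genes is highest in the sorted libraries (4519 to 4673), that of neuronal genes spans the day 3 values (1319 to 2078 against 1383 to 1574), and that of extraembryonic endoderm genes is lowest in the sorted ones (1242 to 1690).

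Pluripotency genes were near the floor in the sorted libraries. Of 22 tested genes none rose, 15 fell and 7 did not pass the test, with a median of -3.60 (-2.68 with the genes at 0 set to the floor). The list's summed level was 219.5 to 258 CPM at day 2, 151 to 157 at day 3 and 73.7 to 94.5 in the sorted libraries, most of which was Sall4 (62.7, 75.4 and 78.4 CPM). Pou5f1, the Oct4 gene, was 3.75 and 4.76 CPM at day 2, 1.54 and 0.91 at day 3 and 0, 0 and 0.0735 in the sorted libraries (edgeR adjusted p = 0.000154); with at most 1 count in a sorted library no fold is given. Zfp42, the Rex1 gene, was 6.28 and 7.92, 2.08 and 2.7 and 0.478, 0.389 and 0.368 CPM (-4.08 ± 0.31, adjusted p = 1.87e-05, edgeR), and Klf5 9.89 and 11.5, 7.73 and 7.05 and 1.37, 1.49 and 1.99 CPM (-2.73 ± 0.20, adjusted p = 1.31e-05, edgeR). Fgf4, Dppa3 and Tdgf1 had 0 counts in every sorted library.

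Of 17 tested genes of mesoderm, endothelium and blood none rose and 5 fell, and the count was 2 or 3 when any of the 5 libraries was left out. Meox1, a somite gene, went from 20.9 and 21.9 to 5.26, 4.28 and 3.31 CPM (-2.32 ± 0.35, edgeR adjusted p = 0.000967), with 3.62 and 10.2 at day 3, and the list's summed level was 51.4 to 58.5 CPM at day 2 and 31.1 to 37.1 in the sorted libraries. Mesp1 and Msgn1 were at 0 in both groups. Of 10 tested neural crest genes, Ngfr, a neurotrophin receptor that motor neurons also make, rose from 6.24 and 8.32 to 44.7, 39.7 and 43.2 CPM (2.54 ± 0.25, edgeR adjusted p = 7.59e-05) and Erbb3 fell by 1.59 ± 0.22. The defining crest factor Sox10 was at 0 in the sorted libraries, Foxd3 held at most 1 count there, and the list's summed level was 67 to 67.3 CPM at day 2 and 96.3 to 98.9 in the sorted libraries.

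S phase and G2 and M phase genes fell in few cases, and part of the G1 genes rose. Of 20 S phase genes none rose and 2 fell, and of 20 G2 and M phase genes none rose and 2 fell, with medians of -0.16 and -0.06. In the fit of the 5 compared libraries alone, 4 S phase and 7 G2 and M phase genes fell, and 1 gene of each list rose. The fall of Cdc6, a replication licensing factor (0.47 on the log2 scale), was lost when any 1 of the 5 libraries was left out. The falls of G2 and M phase genes were all lost without day 2 replicate 1 or 2 or sorted replicate 1 or 2. Mki67 was 728 and 657 CPM at day 2 and 1153, 973 and 673 in the sorted libraries (0.43 ± 0.23, edgeR adjusted p = 0.206), with overlap, and the sorted replicates differed by more than the day 2 ones. Of those that fell, Ccne1, cyclin E1, fell by 0.91 ± 0.17 (adjusted p = 0.00353, edgeR). Although a cyclin of G1, it is counted in the S phase list and not among the G1 genes that follow. Of 15 G1 cyclins and inhibitors 7 rose and none fell (2 rose without day 2 replicate 2). Ccnd1, cyclin D1, which drives progenitors through G1, was 222 and 177 CPM at day 2, 286 and 308 at day 3 and 339, 354 and 458 in the sorted libraries (0.94 ± 0.18, edgeR adjusted p = 0.00417). Cdkn1b, the p27 inhibitor of cells that leave the cycle, rose from 77.8 and 68.8 to 146, 124.7 and 130.7 CPM (0.87 ± 0.13, adjusted p = 0.000903, edgeR), and the pocket protein genes Rb1, Rbl1 and Rbl2 by 1.06 ± 0.19, 0.64 ± 0.18 and 1.32 ± 0.25. Cdkn1c, the p57 inhibitor, was 96.5 and 70.1 CPM at day 2, 145 and 121 at day 3 and 65.3, 74.9 and 109 in the sorted libraries and did not pass the test (edgeR adjusted p = 0.993), with values that overlapped. Ccnd1 and Rbl2 lost the call without day 2 replicate 2, Rbl1 without day 2 replicate 1 or 2 or sorted replicate 1 or 2 (edgeR adjusted p = 0.0561 to 0.203).

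Genes that respond to dissociation and sorting are given because the groups were handled differently. Of 18 tested immediate early and dissociation genes 2 rose, 2 fell and 14 did not pass the test, and none rose without day 2 replicate 1 or 2. Fos was 4.24 and 4.18 CPM at day 2, 11.5 and 5.23 at day 3 and 14.6, 25.8 and 28.8 in the sorted libraries (2.45 ± 0.70, edgeR adjusted p = 0.0268), a call lost in 7 of 24 other settings. Egr1, induced in the same way, was 13.7 and 17.4 CPM at day 2 and 25.3, 35.3 and 38.4 in the sorted libraries without passing the test. Atf3 and Klf6 fell by 0.87 ± 0.18 and 0.52 ± 0.14, and the heat shock genes Hspa1a and Hspa1b, near-identical copies between which reads may be split, were below 2 CPM in all of these libraries. Of 15 p53 targets 1 rose, the kinase gene Plk2 (0.97 ± 0.20), and not without day 2 replicate 2. The part of these genes in the other differences was not tested. Fos lost the call without day 2 replicate 1 or 2 or sorted replicate 2 or 3, Atf3 without day 2 replicate 2 (edgeR adjusted p = 0.0607 to 0.164). Klf6 lost the call without day 2 replicate 1 or 2 or sorted replicate 1 or 2 (edgeR adjusted p = 0.058 to 0.174).

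Glycolysis and hypoxia genes were uneven between sorted replicates. Of 20 genes 4 rose and 2 fell, and the 4 rises were 0 with day 2 replicate 2 left out, 2 with day 2 replicate 1 left out and 1 without sorted replicate 1 or 2. Bnip3, a hypoxia target, was 8.73 and 5.09 CPM at day 2, 7.64 and 8.26 at day 3 and 36.6, 28.1 and 8.97 in the sorted libraries, where replicate 3 was near day 2. Pdk1 (103, 90.9 and 28.2 CPM) and Ldha (401, 358 and 144 CPM) had the same library lowest and did not pass the test. The glucose transporters Slc2a3 and Slc2a1 fell in all sorted libraries, from 404 and 389 to 82.3, 68.4 and 39.5 CPM and from 464 and 727 to 190.3, 242 and 214 CPM (-2.64 ± 0.24 and -1.47 ± 0.29, edgeR adjusted p = 4.08e-05 and 0.00454). Slc2a3 is the high affinity transporter of early embryonic cells and of neurons. Bnip3 lost the call without day 2 replicate 2 or sorted replicate 1 or 2, Slc2a1 without day 2 replicate 2 (edgeR adjusted p = 0.0532 to 0.175).

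Among all genes at 5 CPM or more in the higher group with no overlap between groups, the 12 largest rises included 7 genes not in the lists above. Ptpn5, a phosphatase of the nervous system, was 0.483 and 0.582 CPM at day 2, 6.88 and 7.67 at day 3 and 33.3, 33.5 and 28.1 in the sorted libraries (5.88 ± 0.52, edgeR adjusted p = 3.82e-05). It was the largest rise and exceeded unsorted day 3 by 2.12 ± 0.40, while Fabp7 exceeded it by 2.76 ± 0.36; neither difference was tested. Cntn2, an axonal adhesion protein, went from 8.14 and 12 to 308, 274 and 203 CPM (4.70 ± 0.31). Myt1, a zinc finger factor of neurogenesis, rose from 3.16 and 1.64 to 70.9, 54.5 and 47.7 CPM (4.59 ± 0.36). Scg2, a secretogranin, rose from 0.335 and 0.218 to 15.4, 9.85 and 11.9 CPM (5.47 ± 0.52) and Negr1, a neuronal adhesion protein, from 1.04 and 1.09 to 27.2, 22.9 and 25.1 CPM (4.55 ± 0.62). Clvs1, a lipid-binding protein of neurons, rose from 2.42 and 1.67 to 49.4, 41 and 38.2 CPM (4.39 ± 0.28). Gnat3, a G protein subunit of taste cells, went from 0.149 and 0.254 to 6.21, 5.64 and 4.19 CPM (4.70 ± 0.43), and its level at day 3 was 8.24 and 6.27.

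Of the 12 largest falls by the same rule, Wnt8a, Stra8, Cubn, Cyp26a1 and Sox17 are given above. The largest was that of Zscan4d, a zinc finger gene of early embryos, at 10.6 and 15.2 CPM at day 2, 0.755 and 2.6 at day 3 and 0.0597, 0 and 0.0735 in the sorted libraries (edgeR adjusted p = 2.89e-05). It has near-identical copies, between which reads may be split. The pluripotency gene Dppa5a was 12.4 and 13.1, 6.57 and 4.78 and 0.119, 0.13 and 0.0735 CPM, and Gdf3, a TGF-beta ligand of pluripotent cells, was 5.02 and 7.16, 0.472 and 0.618 and 0.0597, 0.13 and 0.147 CPM (edgeR adjusted p = 3.12e-06 and 3.34e-06). Dnmt3l, the cofactor of de novo DNA methylation, was 15.5 and 17.3 CPM at day 2, 6.48 and 3.93 at day 3 and 0.0597, 0.13 and 0 in the sorted libraries (edgeR adjusted p = 3.12e-06), and for these 4 genes no fold is given, at 2 counts or fewer in each sorted library. Dmrt1, a germ cell factor, fell from 8.96 and 10.8 to 0.299, 0.13 and 0.0735 CPM (-5.79 ± 0.34, adjusted p = 3.96e-06, edgeR). The secreted Wnt inhibitor Sfrp5 fell from 10.7 and 33.8 to 0.239, 0.454 and 0.368 CPM (-5.97 ± 0.72, adjusted p = 0.000239, edgeR) and Srgn, the granule proteoglycan serglycin, from 38.2 and 34.6 to 1.2, 1.04 and 0.809 CPM (-5.15 ± 0.27, adjusted p = 3.12e-06, edgeR). All of the 12 but Srgn and Sox17 were already lower at unsorted day 3. Srgn was 41.9 and 28.4 CPM there, level with day 2. Sox17 was 8.68 and 5.395 CPM at day 3 against 8.88 and 8.61 at day 2, with overlap.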

How the data were processed

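RNA of 11 wild type libraries in 5 groups was deposited as 3 gene tables: counts per gene, which the authors' table gives as estimated counts with fractional values for 104 of 38197 genes, FPKM as the authors computed it, and log2 values scaled to the library total as the authors deposited them after voom, with 0.5 added to the count and 1 to the total. The submitters' processing notes name Cufflinks 2.1.1, HTSeq 0.6.1, TopHat2 2.0.4, limma, CASAVA and bcl2fastq 1.8.3, with builds GRCm38 and mm10. Their roles, the annotation and the strand setting are not stated there, so reads of a gene and of an antisense or overlapping partner cannot be told apart.

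Counts were rounded and kept by filterByExpr (minimum count 10), scaled by TMM and fitted with edgeR 4.0.16 in R 4.3.3 as group means over all 11 libraries (6 residual degrees of freedom, shared over groups), with Benjamini-Hochberg adjustment over 17006 genes. The SE of a log2 difference is its size divided by the square root of F. The fit was tested on simulated counts. Alternatives used limma 3.58.1 and DESeq2 1.42.0. Gene positions are from GENCODE M21 (GRCm38), matched by symbol, and promoters from RefSeq (GRCm38.p6).

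Genes named are the 12 largest differences each way at 5 CPM or more in the higher group with no overlap, a panel, up to 4 called members of each list by adjusted p, and members that did not pass; the other called members were named after their values were seen. The comparison and the 34 lists were chosen with earlier results of these data known. Of the listed genes, 4 (Cbfa2t3, Slc18a3, Nectin2 and Cdt1) are not analysed here, and a few others are not reported here. Comparisons of day 3 and of day 3.5 with day 2 share the day 2 libraries. Library totals are given in the text; counting intervals and floors cover counting error only.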

Additional observations from a re-analysis of the deposited data

How the results depend on the processing

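Over 24 other settings, 110 of the 194 genes of the naming rule or the text that passed the test did so in each, 84 lost the call in 1 or more (73 of them when a library was left out), and none changed direction while called. Against 1877 genes higher and 1963 lower, the fit of the 5 libraries of the contrast alone gave 2818 higher, an offset for GC content 2903 higher, and a requirement of an absolute log2 difference of at least 1 gave 1114 higher; the cause was not tested, except that the last demands more. With the replicate number as a block, 1308 genes were higher and 1260 lower. The deviations of same-numbered libraries from their group means had correlations of 0.166 and 0.0525. The 2 day 2 libraries deviate from their mean by equal and opposite amounts. These values are therefore not independent and cannot decide whether the libraries are paired. No label says that a number marks a shared culture, so this pairing is a matter of numbers only. Leaving out 1 library at a time gave 662 to 2021 genes higher and 846 to 2130 lower, with the lowest counts without day 2 replicate 2. Without day 2 replicate 1, 42 of these 194 genes lost the call, without day 2 replicate 2 60, and without sorted replicate 1, 2 or 3 29, 26 and 18; a lone day 2 library is assumed to vary like the other groups. Values near 0 that did not pass changed sign. For Cdkn1c the log2 difference was 0.0106 with RLE size factors, 0.011 with DESeq2, 0.0116 in the 5 libraries alone and 0.175 with the GC offset, and it ran from -0.247 to 0.234 over libraries left out. For Smo it was 0.0332 with the GC offset. Over libraries left out, it ran from -0.0403 to 0.900 for Hes5, from -0.037 to 1.88 for Hoxb5 and from -0.0357 to 0.584 for Ldha, the lowest without day 2 replicate 1, 1 and 2 in turn. The sorted libraries hold fewer counts, and thinning all libraries to the shallowest left 1784 genes higher and 1792 lower.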
